A study of Mus musculus with 4 samples.

Results

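The genes examined here make and turn over the polyamines in mouse muscle: Odc1, Amd1, Srm and Sms for synthesis, Smox and Sat1 for breakdown, and Oaz1 and Azin1 for the control of ornithine decarboxylase. These 8 genes were chosen by name, and a gene was measured where at least 1 probe set of the array carried its symbol and no other. That held for 6 of the 8 genes, with 11 probe sets among the 45101 of the array. The 3 probe sets of Sms also carry the symbol of a pseudogene, Sms-ps, and no probe set was paired with Amd1 in the probe table used, so both genes were not analysed here. The 6 measured genes stood among 15103 genes tested.

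The samples were tibialis cranialis muscles of 8 male C57Bl/6 mice, put on a high fat diet when they were 8 weeks old. In each mouse the muscle of 1 leg received AAV8 ProMyo, after 4 weeks on the diet, and the same muscle of the other leg received saline. AAV8 is a vector made from an adeno-associated virus, used to bring genes into muscle. Its cargo, ProMyo, encodes the propeptide of myostatin, a part of the precursor that holds this brake on muscle growth inactive. Muscles were collected 10 weeks after the injection, at 22 weeks of age. RNA was pooled from animals 1-4 and from animals 5-8, giving 2 ProMyo arrays and 2 saline arrays. Every group thus shared the diet, sex, strain and age. The saline leg received no vector, so the propeptide and the virus cannot be told apart, and the promoter that drives the propeptide is not given in the sources used here. Pooling leaves the spread between single animals unseen, so p-values rest on the spread between pools, of each gene and of all genes together.

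Polyamines (putrescine, spermidine and spermine) are small positively charged molecules that bind nucleic acids and are needed for growth. Ornithine decarboxylase makes putrescine, spermidine synthase and spermine synthase lengthen it with groups that come from decarboxylated S-adenosylmethionine, and spermine oxidase and spermidine/spermine acetyltransferase lead back from spermine and spermidine. Antizyme binds ornithine decarboxylase and sends it to the proteasome, and antizyme inhibitor, a relative of the decarboxylase without its activity, takes antizyme away. In mouse muscle Odc1 is known to respond to androgens, and Smox is known to fall in several forms of atrophy.

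The stretches before the transcription starts of Odc1, Smox and Oaz1 are shown first, since Odc1 and Smox were the measured genes with higher values in ProMyo muscle in both pools, and Oaz1 was among those with opposite differences. They come from RefSeq for the build GRCm38.p6, whose table held windows for 6 of the 8 genes (all but Srm and Azin1). Each runs 5′ to 3′ on the plus strand and ends where the annotated gene begins. Capitals mark the GC box, GGGCGG or its complement CCGCCC, which binds factors of the Sp family. The stretches lie at chr12:17544623-17544807 (Odc1), chr2:131491612-131491857 (Smox) and chr10:80826406-80826655 (Oaz1).
Odc1: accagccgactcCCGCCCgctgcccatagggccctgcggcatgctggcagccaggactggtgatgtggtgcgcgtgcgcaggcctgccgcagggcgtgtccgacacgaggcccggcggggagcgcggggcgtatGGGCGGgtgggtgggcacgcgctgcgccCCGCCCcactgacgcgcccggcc
Smox: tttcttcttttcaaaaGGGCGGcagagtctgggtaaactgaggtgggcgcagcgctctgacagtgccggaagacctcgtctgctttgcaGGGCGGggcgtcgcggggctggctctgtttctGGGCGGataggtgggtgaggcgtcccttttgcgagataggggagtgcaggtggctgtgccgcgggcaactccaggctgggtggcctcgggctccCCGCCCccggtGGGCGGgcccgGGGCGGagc
Oaz1: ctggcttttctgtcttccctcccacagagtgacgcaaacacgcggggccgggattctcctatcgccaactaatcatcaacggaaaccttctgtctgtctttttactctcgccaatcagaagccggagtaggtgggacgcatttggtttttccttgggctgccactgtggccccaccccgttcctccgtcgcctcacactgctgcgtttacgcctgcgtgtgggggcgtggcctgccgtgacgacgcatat
In the 250 bases before the start that the table uses, Smox held 6 GC boxes and Odc1 held 4, of which 3 lie in the stretch printed, while Oaz1 held 0 and Sat1 held 2. Of these bases, 65 lie inside the annotated gene for Odc1 and 4 for Smox, against 0 for Oaz1 and Sat1. The shares of G and C given below also cover them. A GC box stood in 33.0% of the 32544 distinct windows of that length. The windows of Odc1 and Smox had 80.0% and 68.0% G and C, that of Oaz1 58.0%, and the median window 52.4%. The E-box of Myc (CACGTG, in 6.03% of windows), the cyclic AMP response element (TGACGTCA, in 1.55%), the TATA box (TATAAA, in 12.3%) and the palindromic Smad element (GTCTAGAC, in 0.169%), searched on both strands, had no match in the windows of Odc1, Smox, Oaz1 and Sat1. None of these letters overlaps a GC box. Amd1 held 1 GC box, a window of Sms held 1 E-box of Myc and 0 GC boxes, and another held 4 GC boxes. Bases beyond the windows were not searched. These matches describe letters only.

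Expression values were read as log2 values, so a difference of 1 is a doubling. Array medians lay between 1.06 and 1.11, and control probe sets for Bacillus genes, with no target in muscle, reached 0.68 and 0.57 in the ProMyo arrays, against 0.76 and 0.99 in the saline arrays. The saline 5-8 array stood apart, with an upper quartile of 2.98 against 3.15 to 3.20 and hybridization controls averaging 11.1 against 10.1 to 10.2 in the other 3. The 3′ over 5′ signal of Gapdh, which is lower where RNA is better preserved, was 0.58 and 0.74 log2 units in ProMyo muscle, against 0.90 and 0.81 in saline muscle; its part in the results was not tested. All 6 markers of muscle fibres were bright, with values from 9.31 to 12.3. Of the 11 probe sets of the polyamine genes, 10 were above the Bacillus controls on all 4 arrays.

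The comparison of both legs asks how the polyamine genes stood in muscle given AAV8 ProMyo under a high fat diet. Odc1 and Smox had higher values in ProMyo muscle in both pools, by 1.23-fold and 1.17-fold on average, while Srm, Sat1, Oaz1 and Azin1 were lower in pool 1-4 and higher in pool 5-8. No gene of the 6 differed by 1.5-fold or more in the same direction in both pools, as 1.60% of all genes did. None passed the test (limma with Benjamini-Hochberg adjustment over 15103 genes, smallest adjusted p = 0.855), and none had an unadjusted p under 0.05. Of all genes tested 0% were called and 5.79%, or 874 genes, had an unadjusted p under 0.05. The count of 2 of 6 genes higher in both pools and 0 lower in both stood beside 29.0% and 24.0% of all genes, and the 4 genes with a negative difference in pool 1-4 and a positive one in pool 5-8 stood beside 24.1%. The 6 genes had a median difference of 0.10, against 0.01 for all genes. In whole muscle, fewer cells of a type and less RNA per cell cannot be told apart.

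**Figure D1:**
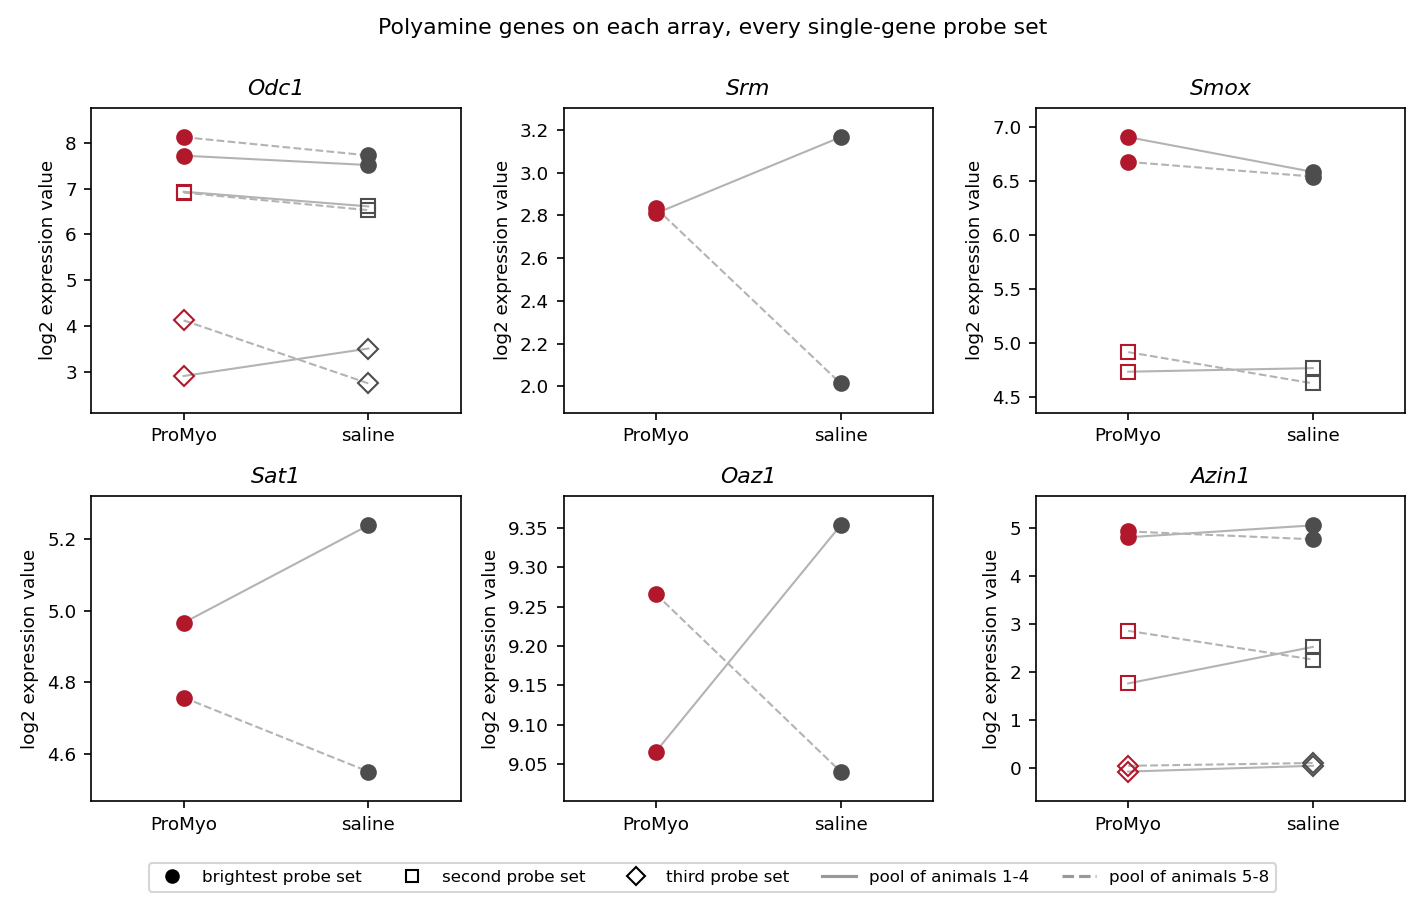
Log2 expression values (vertical axis, scaled for each gene) of the 6 measured polyamine genes in ProMyo and saline muscle, with 1 symbol per array, the probe sets of a gene in different symbols and grey lines joining the muscles of the same animals. At the brightest probe sets of Odc1 and Smox both lines go down towards saline, while those of Srm, Sat1, Oaz1 and Azin1 part.

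Odc1 encodes ornithine decarboxylase, the first and rate-limiting enzyme of polyamine synthesis. Its brightest probe set read 7.72 in pool 1-4 and 8.12 in pool 5-8 of ProMyo muscle, against 7.51 and 7.72 in saline muscle. ProMyo was higher within each pool, but the groups overlapped slightly, since the ProMyo 1-4 array lay just below the saline 5-8 array. The difference was 0.30 ± 0.21 (log2 ± SE, n = 2 pools per group; limma, adjusted p = 0.855), with a 95% interval from -0.23 to 0.83. This probe set ends in _x_at, the maker's sign for probes that can bind other sequences as well.

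The second probe set of Odc1, without that sign, read 6.93 and 6.91 in ProMyo muscle, against 6.61 and 6.53 in saline muscle. Here both ProMyo arrays lay above both saline arrays, and the difference of 0.35 was 0.32 in pool 1-4 and 0.38 in pool 5-8 (limma over 33787 probe sets, unadjusted p = 0.0786, adjusted p = 0.775). The third probe set was dimmer and went in opposite directions, with 2.92 and 4.13 in ProMyo muscle against 3.51 and 2.75 in saline muscle. Over the 3 probe sets, 5 of 6 differences within pools were positive. Over all measured polyamine genes, 13 of 20 were, at the probe sets above the Bacillus controls on all 4 arrays. Probe sets of a gene read the same arrays, so such counts, here and below, are not counts of separate samples. The share of positive differences over all probe sets was not counted, so no lean of the genes is read from them. Over all genes tested, the median difference was 0 in pool 1-4 and 0.04 in pool 5-8.

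Srm encodes spermidine synthase, which turns putrescine into spermidine. Its only probe set read 2.81 and 2.83 in ProMyo muscle, against 3.17 and 2.01 in saline muscle. The ProMyo arrays were close to each other and lay between the saline arrays, so the sign of the difference depended on the pool: -0.36 in pool 1-4 and 0.82 in pool 5-8. The mean difference was 0.23 ± 0.39 (log2 ± SE, n = 2 pools per group; limma, adjusted p = 0.947). Leaving out the saline 5-8 array gave -0.34 (limma, adjusted p = 0.615), and leaving out saline 1-4 gave 0.81 (adjusted p = 0.462).

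Smox encodes spermine oxidase, which oxidizes spermine to spermidine and releases hydrogen peroxide. Its brightest probe set read 6.90 and 6.67 in ProMyo muscle, against 6.58 and 6.54 in saline muscle. Both ProMyo arrays lay above both saline arrays, an order that 17.8% of all genes showed. The difference was 0.23 ± 0.17 (log2 ± SE, n = 2 pools per group; limma, adjusted p = 0.860), with a 95% interval from -0.20 to 0.66, and 36.5% of all genes differed more in either direction. The second probe set, at 4.73 and 4.91 in ProMyo muscle, against 4.77 and 4.62 in saline muscle, did not part the groups and differed by 0.13, with -0.03 in pool 1-4 and 0.29 in pool 5-8.

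Sat1 encodes the acetyltransferase that marks spermidine and spermine for oxidation or export. It read 4.97 and 4.76 in ProMyo muscle, against 5.24 and 4.55 in saline muscle. As at Srm, the saline arrays were the highest and the lowest of the 4, and both ProMyo arrays lay between them. The difference of -0.03 ± 0.27 (log2 ± SE, n = 2 pools per group; limma, adjusted p = 0.994) was made of -0.27 in pool 1-4 and 0.21 in pool 5-8. Its 95% interval, from -0.72 to 0.66, leaves room for changes of either sign.

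Oaz1 encodes the antizyme, whose synthesis needs a ribosomal frameshift that polyamines promote, so that its RNA level and its protein level can part. It read 9.07 and 9.27 in ProMyo muscle, against 9.35 and 9.04 in saline muscle. The saline arrays again enclosed the ProMyo arrays, and the difference was -0.29 in pool 1-4 and 0.23 in pool 5-8, on average -0.03 ± 0.19 (log2 ± SE, n = 2 pools per group; limma, adjusted p = 0.988). Another probe set also carries the symbol of a pseudogene, Oaz1-ps, and was not used.

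Azin1 encodes antizyme inhibitor. Its brightest probe set read 4.81 and 4.93 in ProMyo muscle, against 5.06 and 4.76 in saline muscle, with a difference of -0.04 ± 0.18 (log2 ± SE, n = 2 pools per group; limma, adjusted p = 0.985). The second probe set, at 1.76 and 2.86 in ProMyo muscle, against 2.52 and 2.26 in saline muscle, had the same signs as the first, negative in pool 1-4 and positive in pool 5-8. The third lay between -0.07 and 0.11 on all 4 arrays, below the Bacillus controls, and gives no level.

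**Figure D2:**
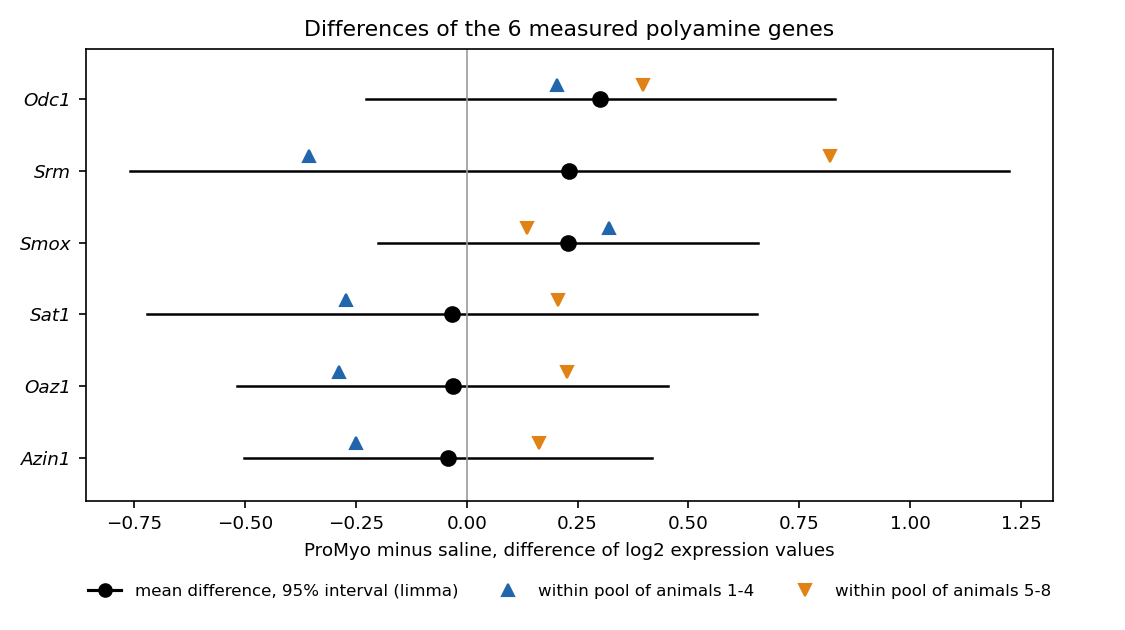
Difference between ProMyo and saline muscle (horizontal axis, log2) for the 6 genes, with black points and bars for the mean over both pools and its 95% interval from limma, and triangles for the difference within each pool. Every interval crosses 0, and for Odc1 and Smox both triangles lie to the right of 0.

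The saline arrays held the extreme values in most of these genes. The saline 5-8 array had the lowest value of the 4 arrays in 5 of the 6 genes (all but Odc1), where 35.5% of all genes had their lowest value, and the saline 1-4 array had the highest value in 4 of the 6 (Srm, Sat1, Oaz1 and Azin1), against 29.7% of all genes. After quantile normalization, which gives all arrays the same distribution, the saline 5-8 array was lowest in 2 of the 6, Srm and Sat1. The positive differences in pool 5-8 then stood at 0.06 for Sat1, 0.03 for Azin1 and 0.04 for Smox, while they were 0.72 for Srm, 0.21 for Oaz1 and 0.32 for Odc1. In pool 1-4 the quantile-normalized differences were 0.15 for Odc1 and 0.28 for Smox, and lay between -0.34 and -0.26 for the other 4.

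Leaving out 1 array changed the sign for Srm, Sat1, Oaz1 and Azin1 but not for Odc1 and Smox. For all but Odc1 this follows from the order of the arrays. In Smox both ProMyo arrays lay above both saline arrays, so no sign could change. Saline arrays enclosed the ProMyo arrays in Srm, Sat1, Oaz1 and Azin1. Leaving out the lower or the higher of these saline arrays therefore had to give opposite signs. Odc1 differed by 0.10 without the ProMyo 5-8 array and by 0.50 without the ProMyo 1-4 array, and by 0.20 and 0.41 without the saline 1-4 and the saline 5-8 array. Smox differed by 0.11 without the ProMyo 1-4 array and by 0.34 without the ProMyo 5-8 array. Sat1 stood at 0.31 when saline 1-4 was left out, at -0.38 when saline 5-8 was, and at 0.07 when ProMyo 5-8 was. Oaz1 and Azin1 were positive without the saline 1-4 array (0.12 and 0.10) or the ProMyo 1-4 array (0.07 and 0.02). In these fits a group with 1 array was assumed to vary like the other group.

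**Figure D3:**
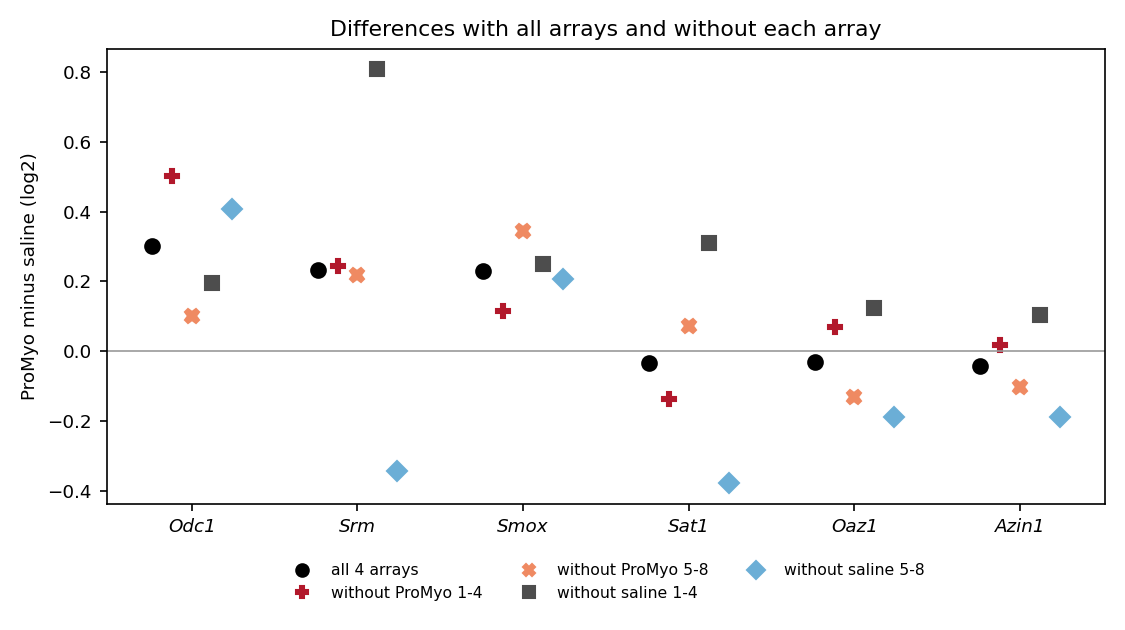
Difference between ProMyo and saline muscle (vertical axis, log2) for the 6 genes with all 4 arrays and without each array in turn, 1 symbol per fit. The symbols of Odc1 and Smox stay above 0, from 0.10 to 0.50 and from 0.11 to 0.34, and those of Srm spread from -0.34 to 0.81.

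The reactions around the polyamines were read from a list of 39 further genes, of which 30 were tested. None passed the test or had an unadjusted p under 0.05 (limma). In both pools 9 of the 30 were higher in ProMyo muscle and 3 lower, against 29.0% and 24.0% of all genes, and the median difference was 0.07, against 0.01 for all genes. In 8 genes both ProMyo arrays lay above both saline arrays and in 3 below, where all genes gave 17.8% and 15.7%.

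Supply of arginine and ornithine was read from 4 genes, of which 1 was higher in both pools. Oat, the mitochondrial ornithine aminotransferase, read 6.41 and 6.31 in ProMyo muscle, against 6.23 and 6.16 in saline muscle, with a difference of 0.17 ± 0.16 (log2 ± SE, n = 2 pools per group; limma, adjusted p = 0.887). The groups did not overlap. Agmat, agmatinase, was dim, with 1.05 and 1.24 in ProMyo muscle, against 1.10 and 1.05 in saline muscle.

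Of 7 genes of the methionine cycle and of methylthioadenosine salvage, 2 were higher in both pools and 1 lower. Mtap cleaves methylthioadenosine, the by-product of spermidine and spermine synthesis. Its brightest probe set read 5.64 and 5.86 in ProMyo muscle, against 5.47 and 5.60 in saline muscle, a difference of 0.22 ± 0.17 (log2 ± SE, n = 2 pools per group; limma, adjusted p = 0.867). Its 4 probe sets gave 7 positive differences of 8 within pools. The second brightest read 5.10 and 5.24 in ProMyo muscle against 4.53 and 4.38 in saline muscle, a wider gap of 0.71. Mat2b, a regulatory subunit of methionine adenosyltransferase, had the opposite sign, with 6.91 and 6.96 in ProMyo muscle, against 7.14 and 7.02 in saline muscle.

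Sat2 was the 1 tested gene of the remaining synthesis and breakdown enzymes. Its product is related to that of Sat1, and in humans it acts on thialysine rather than on polyamines. Sat2 read 3.82 and 3.93 in ProMyo muscle, against 3.08 and 3.72 in saline muscle, and its difference of 0.47 ± 0.25 (log2 ± SE, n = 2 pools per group; limma, adjusted p = 0.828) was the highest of the list. The groups did not overlap, and the saline 1-4 array was the lowest of the 4.

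Oaz2 encodes a second antizyme. Its brightest probe set read 9.00 and 9.05 in ProMyo muscle, against 8.97 and 8.72 in saline muscle, and differed by 0.18 ± 0.17 (log2 ± SE, n = 2 pools per group; limma, adjusted p = 0.893). Its 3 probe sets gave 5 positive differences of 6 within pools, and the second read 4.72 and 4.38 in ProMyo muscle against 4.29 and 3.86 in saline muscle. Oaz3, an antizyme known from testis, was dim and its probe sets disagreed: the brightest differed by 0.12 and the next 2 by -0.56 and -0.66.

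Among 7 transport genes, 2 were higher in both pools and 1 lower. Slc18b1, a vesicular polyamine transporter, had the lowest difference of the list. It read 2.89 and 2.65 in ProMyo muscle, against 3.07 and 3.49 in saline muscle, a difference of -0.51 ± 0.21 (log2 ± SE, n = 2 pools per group; limma, adjusted p = 0.822). Atp13a3, a pump that takes up polyamines in human cells, read 6.78 and 6.98 in ProMyo muscle against 6.61 and 6.61 in saline muscle. Its other 2 probe sets, both dimmer, went the other way in both pools, by -0.19 and -0.37 on average, the last of them close to the Bacillus controls.

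Spermidine is also the source of hypusine, a modified amino acid of the translation factor eIF5A, and 1 of 4 genes of this branch was higher in both pools. Eif5a2, the less widely expressed of the genes for this factor, read 2.33 and 2.25 in ProMyo muscle, against 1.86 and 1.95 in saline muscle. It differed by 0.38 ± 0.16 (log2 ± SE, n = 2 pools per group; limma, adjusted p = 0.822), and the groups did not overlap. Eif5a read 10.4 and 10.3 in ProMyo muscle, against 10.3 and 10.4 in saline muscle. Dhps, deoxyhypusine synthase, read 6.23 and 5.93 in ProMyo muscle, against 6.19 and 6.16 in saline muscle, and its second probe set had the opposite sign, 0.44.

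Odc1 is a known target of Myc. Of 5 genes for Myc and its partners, Mycn was higher in both pools, by 0.17 on average, while its other 2 probe sets, both dim, differed by 0 and -0.13. Mxd1, an antagonist of Myc, was lower, by -0.11, while its second probe set read 0.20. Myc itself was dim, with 1.02 and 0.82 in ProMyo muscle, against 0.79 and 0.90 in saline muscle.

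**Figure D4:**
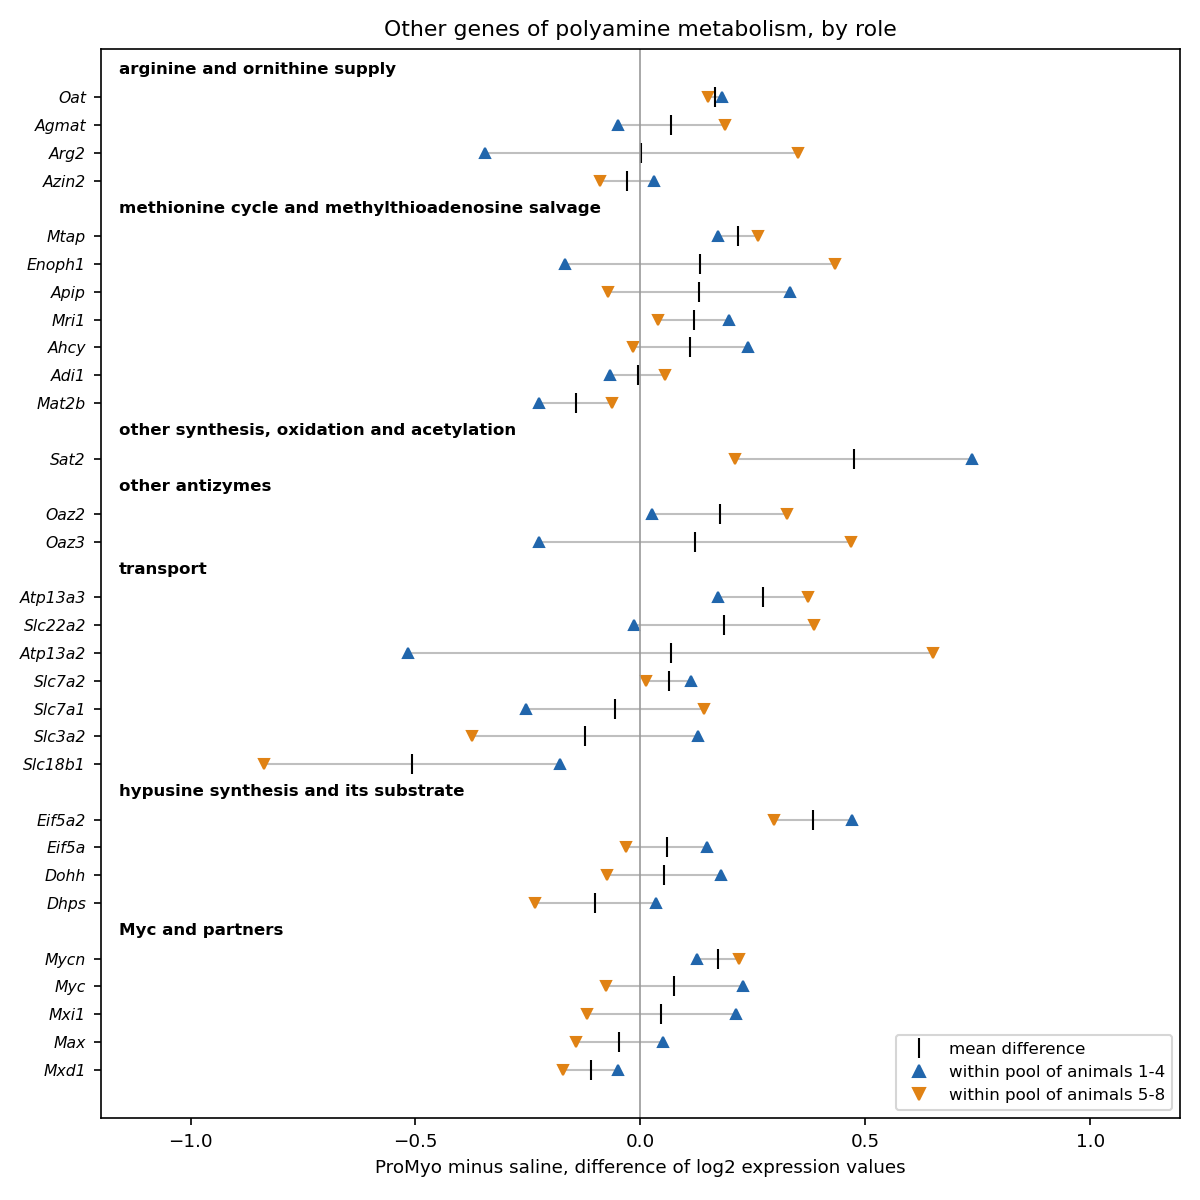
Difference between ProMyo and saline muscle (horizontal axis, log2) for the 30 tested genes around the polyamines, grouped by role, with bars for the mean and triangles for each pool. Both triangles lie on the right of 0 for 9 genes, Sat2 and Eif5a2 among them, and on the left for 3, Slc18b1, Mat2b and Mxd1.

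The genes nearest in profile were named for the 3 polyamine genes with the largest difference, by the distance between their mean-centred log2 values over the 4 arrays. For Odc1 these were Gm8579, Tfb2m and Nudt12os (distances of 0.023 to 0.041), for Srm they were Ube2t, Prag1 and Pdia5 (0.063 to 0.073), and for Smox they were Ndufs4, Ddc and Smad3 (0.0035 to 0.024). Of these, Gm8579 read 0.29 to 0.88, about the level of the Bacillus controls. Ube2t and Pdia5 lay below those controls on the saline 5-8 array, at 0.47 and 0.36. Within a distance of 0.2 lay 262 genes for Odc1, 54 for Srm and 1350 for Smox. The distance is not scaled, so these counts depend on how much a gene varied between arrays. They do not show how common the shape of a profile was.

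Markers of the cell types of whole muscle were read as well. None of the 30 measured passed the test, and 5 had an unadjusted p under 0.05 (limma), beside 5.79% of all genes. In both pools 9 of the 30 were higher in ProMyo muscle and 10 lower, beside 29.0% and 24.0% of all genes. Each of the 6 fibre markers had higher values in ProMyo muscle within both pools, by 0.10 to 0.21 on average over the pools, and their summed level was 14.2 to 14.3 on the log2 scale in ProMyo muscle and 14.0 to 14.1 in saline muscle. The 3 tendon markers were lower in both pools (summed 9.32 to 9.45 in ProMyo muscle, 9.86 to 9.95 in saline muscle). So were 3 of 5 fibroblast markers and 2 of 5 macrophage markers, C1qb and Adgre1. The other macrophage markers, C1qa, Ptprc and Cd68, had opposite signs in the pools, with mean differences of -0.32, 0.14 and 0.01. The sum of all 5 macrophage markers was 6.08 to 6.22 in ProMyo muscle and 6.46 to 6.62 in saline muscle. Most of this sum came from C1qb, the brightest of the 5, which differed by -0.48. Fibroblast markers did not share 1 direction: Col1a1 differed by -0.68 and Lum by 0.63, with Lum higher in both pools, and Dcn had opposite signs in the pools. Their sum was 9.61 to 9.66 in ProMyo muscle and 9.85 to 10.0 in saline muscle. Of the 4 endothelial markers, 2 were higher in both pools, Cdh5 and Kdr, and 0 were lower in both. Tek and Pecam1 had opposite signs in the pools, and the sums of all 4 overlapped between the groups. Of 2 measured adipocyte markers, Adipoq was above the Bacillus controls on all 4 arrays and differed by 0.27 in pool 1-4 and -1.47 in pool 5-8, and Lep read 0.70 at most, about the level of these controls. The Schwann cell marker Mbp was lower in both pools, by -0.76 on average, and the smooth muscle marker Acta2 by -0.46, while the other marker of each list, S100b and Myh11, had opposite signs in the pools. The part of these cell types in the values of Odc1 and Smox was not tested.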

How the data were processed

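Each of the 4 arrays carried equal amounts of RNA from 4 animals. The deposited values are log2 values that the authors obtained for each probe set with RMA in the software Affymetrix Expression Console (source: the submitters' processing notes). Its version is not given. The log base is not stated and was read as 2 from the range of -0.45 to 13.2. For RMA the array medians near 1 and the negative values are low, and folds hold on the deposited scale.

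Probe sets with 1 symbol were used, the brightest per gene by the mean of 4 arrays, those with a mean below the 25th percentile (0.454) left out. The legs were compared with limma 3.58.1 (R 4.3.3), unpaired, with 2 residual and 3.16 prior degrees of freedom, Benjamini-Hochberg adjustment over 15103 genes and a threshold of 0.05. With 2 arrays against 2, an exact permutation test cannot go below p = 0.33, so none was run. The number of arrays limits the precision: the median standard error was 0.193. Both legs came from the same mice, so pools of both groups are paired by the design. As a check, the deviation of a ProMyo pool from its group mean correlated over genes with that of the saline pool of the same animals (r = 0.158). The test was checked on simulated data.

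The 8 genes, the further list and the cell markers were chosen with earlier results of these data known. Named beyond the 8 were up to 2 genes with the smallest p per role in the list, 3 genes nearest in profile to each of 3 members, and Myc, Eif5a and the markers of cell types given by name, named after their values were seen. Alternatives were the pool as a block, other filters, scalings, variance models and probe set rules, and leaving out each array.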

Additional observations from a re-analysis of the deposited data

How the results depend on the processing

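No alternative called any of the 6 polyamine genes. Across 7 settings (a replicate block, a variance trend, quantile or median scaling, probe sets of a gene averaged, the filter removed or raised to the 50th percentile), the sign of all 6 differences stayed as reported, with Odc1 from 0.23 to 0.35, Smox from 0.16 to 0.23 and Srm from 0.19 to 0.23. For the block, the variance trend and both filter settings this was bound to be so, since they leave each difference unchanged. Median scaling shifts the differences of all genes by the same amount. Only quantile scaling, and averaging for genes with several probe sets, could move single genes differently. With the paired pools as a replicate block Odc1 differed by 0.30 ± 0.16 (SE, adjusted p = 0.692 in limma) and 0 genes of all tested were called, as in the unpaired comparison; the block changed no call. With every probe set in place of genes, limma called 1 of 33787 probe sets, which belonged to none of these genes. Without 1 array the range was -0.34 to 0.81 for Srm, -0.38 to 0.31 for Sat1, -0.19 to 0.12 for Oaz1, -0.19 to 0.10 for Azin1, 0.10 to 0.50 for Odc1 and 0.11 to 0.34 for Smox, so 7 of 24 such values had the opposite sign. All were in Srm, Sat1, Oaz1 and Azin1, where the saline arrays enclosed the ProMyo arrays and a change of sign was bound to occur. Why the saline arrays differed was not tested. The smallest unadjusted p among them was 0.011, for Srm without the saline 1-4 array (limma, adjusted p = 0.462).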
